A study of Mus musculus with 6 samples.

Results

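Respiratory chain and ATP synthase subunits are described here in alveolar macrophages, which reside in the airspaces and clear inhaled particles and surfactant, from Zcchc6+/+ and Zcchc6-/- mice. The members were picked by gene symbol, with earlier results of these data known. They are the genes whose symbol starts with Nduf followed by a, b, c, s or v and a digit, Sdha to Sdhd, and those that start with Uqcr, Cox4 to Cox8 or Atp5, without pseudogenes. The rule found 75 of the 25206 genes measured, of which 33 belonged to complex I, 4 to complex II, 7 to complex III, 19 to complex IV and 12 to complex V, the ATP synthase. Ndufa4 and its paralog Ndufa4l2 carry a complex I name but were placed with complex IV, of which Ndufa4 is now known to be a part. A further 12 protein-coding genes with such symbols, among them Cox7c, Uqcrb, Ndufs5 and Atp5l, and the 13 subunit genes of the mitochondrial DNA were not analysed here.

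The study profiled cells lavaged from uninfected mice, with 3 arrays per genotype, to ask whether loss of the RNA uridyltransferase Zcchc6 changes gene expression under basal conditions. In Zcchc6-/- mice exons 16 and 17 of Zcchc6 were removed in the germline through a cre transgene under the ubiquitous EIIa promoter, and the transgene was then bred out. The study used mice of both sexes, 8 to 16 weeks old, and names no sorting step after lavage. The labels give neither the sex nor the strain of the mice behind each array, and do not say that the numbered samples were separate mice, so the p-values cover only how far these samples differ from each other, and some of that spread may be technical.

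Complexes I to IV form the electron transport chain of the inner mitochondrial membrane. Complex I takes electrons from NADH and complex II from succinate, coenzyme Q carries them to complex III, and cytochrome c carries them on to complex IV, which reduces oxygen to water. Complexes I, III and IV pump protons, and complex V lets them return through its membrane rotor to make ATP. Most subunits are encoded in the nucleus and a few in the mitochondrial DNA. Alveolar macrophages live in an oxygen-rich, lipid-rich niche and are known for their reliance on oxidative metabolism.

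The values are log2 expression from the Robust Multiarray Average (RMA), which gives 1 value per gene and array. The median signal of an array was 4.36 to 4.45. Zcchc6 mRNA itself, listed under its current symbol Tut7, read 8.72, 8.77 and 8.65 in Zcchc6+/+ arrays and 8.22, 7.69 and 8.13 in Zcchc6-/- arrays, lower in each but not past the test (log2 fold change -0.70, limma adjusted p = 0.774). How many of its probes lie in the deleted exons is not known here. Of 16 alveolar macrophage markers 15 were measured, all above the median signal, and their mean was 10.63 to 10.72 in Zcchc6+/+ and 10.46 to 10.67 in Zcchc6-/- arrays. Of the 15, 11 had a lower mean in Zcchc6-/- arrays and 5 (33.3%) did not overlap, against 10.2% of all genes, with Fabp4 at -1.17, Krt79 at -0.47, Itgax at -0.24 and Lpl at -0.19 and Marco at 0.43 on the log2 scale (limma adjusted p = 0.838, 0.942, 0.981, 0.997 and 0.813). Of 8 neutrophil markers 5 were higher and 3 lower, with a mean of 4.54 to 4.60 in Zcchc6+/+ and 4.53 to 4.86 in Zcchc6-/- arrays. Cxcr2, Csf3r and S100a9 were higher, at 1.09, 0.63 and 0.25 (limma adjusted p = 0.902, 0.968 and 0.997). The 3 lower ones were Mmp8, Retnlg and S100a8, at -0.63, -0.28 and -0.24 (limma adjusted p = 0.981, 0.997 and 0.997). The mean of 16 T cell markers was 6.94 in Zcchc6-/- replicate 1, against 4.43 and 4.53 in Zcchc6-/- replicates 2 and 3 and 4.29 to 4.83 in the Zcchc6+/+ arrays. All 9 airway epithelial markers had a higher mean in Zcchc6-/- arrays. Averaged over the list they were at 6.34 to 6.80 in Zcchc6+/+ arrays and at 7.24, 7.13 and 6.58 in Zcchc6-/- replicates 1, 2 and 3. Xist, the RNA of the inactive X chromosome in females, was at 3.78 in Zcchc6+/+ replicate 1 and 3.27 in Zcchc6-/- replicate 2, and 10.04 to 10.73 in the other 4 arrays. The part of these differences in the results below was not tested, other than by leaving out each array and by fitting the Xist level.

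In wildtype macrophages 65 of the 75 subunit genes had a mean signal above the median of all genes, 4.41. This held for 31 of 33 genes of complex I, all 4 of complex II, all 7 of complex III, 11 of 19 of complex IV and all 12 of complex V. Signals of different genes come from different probes and do not rank the genes by abundance. Ndufb3, an accessory subunit that complex I needs, had a mean of 1.27, and the complex IV subunit genes Cox5b and Cox7b had means of 3.25 and 3.56, all under the median of all genes. A low value therefore cannot be read as absence of the transcript.

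**Figure D1:**
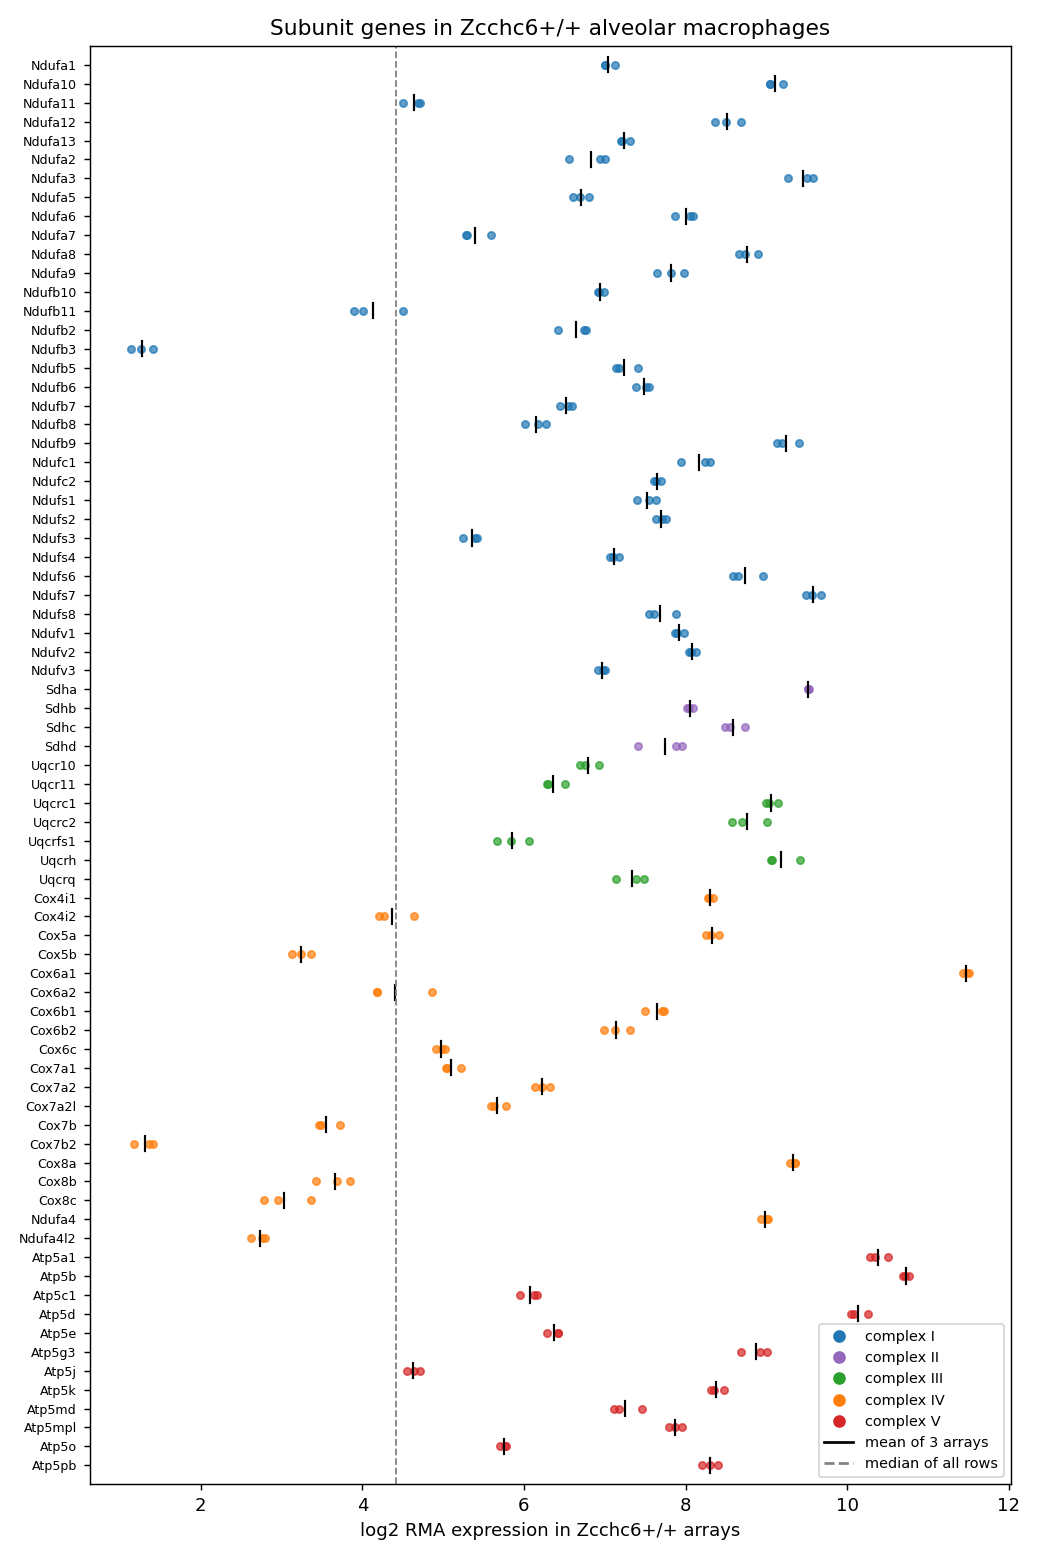
Log2 RMA expression (x axis) of the 75 subunit genes (y axis, by complex) in the Zcchc6+/+ arrays. Points are the 3 arrays, the black line is their mean and the dashed line is the median of all genes, 4.41. Of the 10 genes left of the dashed line, 8 belong to complex IV.

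Ndufs7, a core subunit of complex I that holds the last iron-sulfur cluster before coenzyme Q, read 9.49, 9.57 and 9.68 in the Zcchc6+/+ arrays. Sdha, the flavoprotein of complex II that oxidises succinate, read 9.53, 9.52 and 9.52, and Uqcrh, the hinge protein next to cytochrome c1 in complex III, read 9.05, 9.41 and 9.07. Atp5b, the catalytic beta subunit of complex V, read 10.69, 10.72 and 10.76. The replicates lay close together, with a median standard deviation over the 75 genes of 0.12 in Zcchc6+/+ and 0.15 in Zcchc6-/- arrays. Atp5b and Sdha had the narrowest ranges over all 6 arrays, 0.076 and 0.098. The widest were those of Uqcrq, a small subunit of complex III, at 0.90 and Atp5md, a small membrane subunit of complex V, at 0.85.

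The promoters of nuclear respiratory genes are known for sites of the factors NRF1, GABP of the ETS family and YY1. Promoters of 300 bases, 250 of them before the annotated start, were given by RefSeq (GRCm38.p6) for 60 of the 75 genes, and were searched on both strands. The NRF1 motif (by name, its letters are in capitals in the windows) stood in 12 of the 60 (20.0%), against 4.78% of all 27025 promoters and 10.6% of the 9382 promoters of genes above the median signal. The ETS letters CCGGAAG stood in 14 (23.3%), against 9.12% and 18.9%. The YY1 letters AANATGGCG stood in 7 (11.7%), against 2.51% and 5.5%. These letters hold a start codon followed by GCG, so a match downstream of the start may be coding sequence. Of the 60 promoters 29 held at least 1 of the 3 motifs, 4 held more than 1 and 31 held none, and a match describes the letters, not a bound site.

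The windows below show the match, in capitals, in 30 bases around it for those of the 2 genes with the smallest p in each complex that had one, and for Sdha, which held 3 NRF1 matches. Each is written along the gene's own strand.
Atp5o: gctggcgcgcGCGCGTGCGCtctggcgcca
Ndufs6: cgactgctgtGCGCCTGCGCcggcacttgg
Sdha: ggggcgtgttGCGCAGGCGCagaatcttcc
Sdhb: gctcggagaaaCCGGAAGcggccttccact
Cox8a: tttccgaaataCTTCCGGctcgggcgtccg
Atp5e: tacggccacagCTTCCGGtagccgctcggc
The first 3 show NRF1 letters and the others ETS letters. Those of Atp5o, Ndufs6, Cox8a and Atp5e match on the opposite strand, so their capitals are the reverse complement of the motif. The Atp5o window lies at chr16:91931602-91931631, that of Ndufs6 at chr13:73328479-73328508 and that of Sdha at chr13:74350276-74350305, all on the minus strand. The Sdhb window lies on the plus strand at chr4:140961266-140961295, and those of Cox8a (chr19:7217603-7217632) and Atp5e (chr2:174464185-174464214) lie on the minus strand. With the annotated start counted as 0, the Atp5o match runs from base 9 to 18, the Ndufs6 match from -16 to -7, the Sdhb match from 6 to 12 and the Atp5e match from -102 to -96. The Cox8a match shown spans the start, from -5 to 1, and the Sdha match shown runs from -55 to -46. Ndufs6 also held a YY1 match from base 33 to 41, and Cox8a another ETS match from 32 to 38, neither of them shown.

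Between genotypes, no subunit gene passed the test. Every gene was compared as Zcchc6-/- minus Zcchc6+/+ with limma, and 0 of the 75 had an adjusted p under 0.05 over all 25206 genes, and the share of all genes that passed was 0 as well. The smallest adjusted p among the members was 0.902 in limma. At an unadjusted p under 0.05 there were 2 of the 75, Atp5o and Cox6b2, both with a lower mean in Zcchc6-/- macrophages, or 2.67% of the members against 5.03% of all genes (2.53% lower and 2.5% higher). The 3 arrays of each genotype did not overlap for 7 members, 5 lower and 2 higher, or 9.33% of them, against 10.2% of all genes (5.15% lower and 5.03% higher). Over both directions these shares lay below those of all genes, while the 5 without overlap and lower were 6.67% of the members.

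The differences were small in size. The mean signal of the 75 genes in Zcchc6-/- macrophages ranged from 77.6% to 115% of the wildtype signal, and 50 of them had a log2 fold change within 0.1 of 0. The 95% interval of the log2 fold change lay within 0.5 of 0 for 59 of the 75 genes, and within 1, a doubling or halving, for all 75. Over all genes the same held for 64.1% and 96.4%. The number of arrays limits this precision, and RMA understates changes of genes near the floor of the signal.

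The mean was lower in Zcchc6-/- macrophages for 49 of the 75 genes (65.3%), against 51.8% of all genes, and the median difference on the log2 scale was -0.034 against -0.0063 over all genes. The count of lower genes was 41 with the array medians centred, 42 without Zcchc6+/+ replicate 3 and 55 without Zcchc6+/+ replicate 1. By complex, 24 of 33 genes of complex I, 3 of 4 of complex II, 3 of 7 of complex III, 13 of 19 of complex IV and 6 of 12 of complex V had a lower mean.

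**Figure D2:**
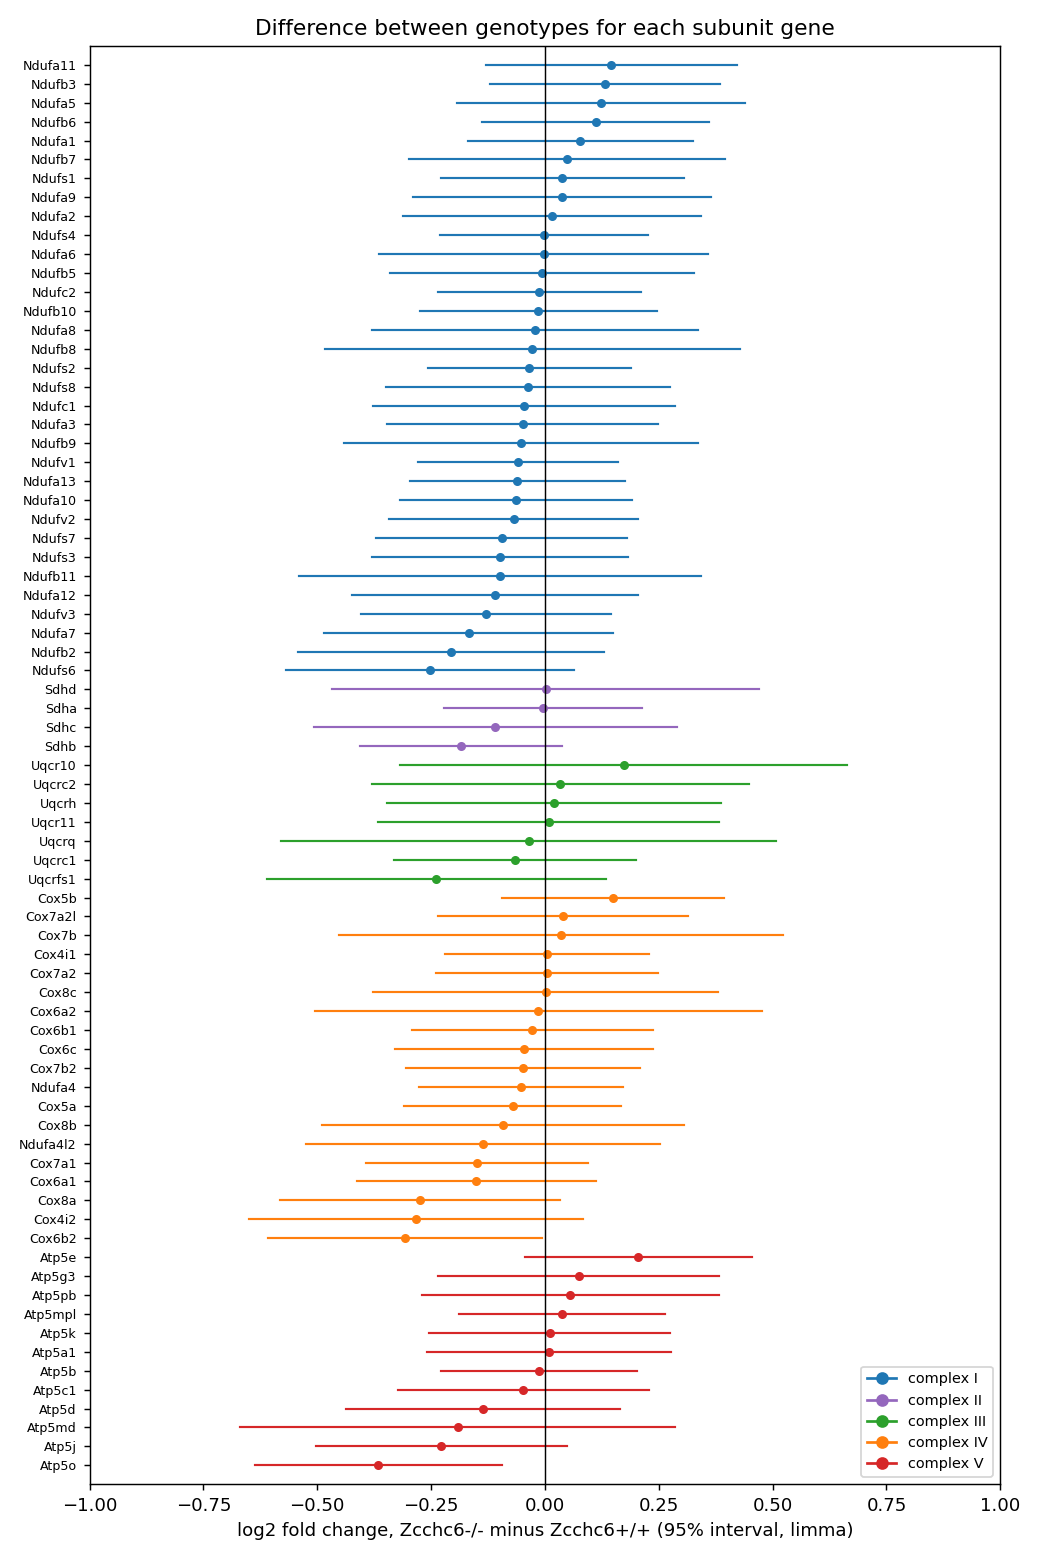
Log2 fold change of each of the 75 subunit genes (x axis, Zcchc6-/- minus Zcchc6+/+) with its 95% interval from limma, coloured by complex. The points lie between -0.37 (Atp5o) and 0.21 (Atp5e), no interval reaches beyond 1 in either direction, and only those of Atp5o and Cox6b2 leave out 0.

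Complex I showed no gene at an unadjusted p under 0.05 and none without overlap between the genotypes, against 5.03% and 10.2% of all genes. The median difference (log2) of its 33 genes was -0.034, within a range from -0.25 for Ndufs6 to 0.15 for Ndufa11. Of the 7 nuclear core subunits, which carry the flavin and the iron-sulfur clusters or bind coenzyme Q, 6 had a lower mean, but the differences ran only from -0.099 for Ndufs3 to 0.038 for Ndufs1. Ndufs6, an accessory subunit that binds zinc in the peripheral arm, read 8.59, 8.95 and 8.65 in the Zcchc6+/+ arrays against 8.39, 8.41 and 8.64 in the Zcchc6-/- arrays. The genotypes overlapped through Zcchc6-/- replicate 3, and the log2 fold change was -0.25 ± 0.14 (SE, limma adjusted p = 0.997), and -0.14 without Zcchc6+/+ replicate 2. Ndufb2, an accessory subunit of the membrane arm, read 6.42, 6.75 and 6.77 against 6.24, 6.58 and 6.50, with a log2 fold change of -0.21 ± 0.14 (SE, limma adjusted p = 0.997). The array lowest in each genotype was replicate 1, and the difference was -0.32 without that of Zcchc6+/+ and -0.11 without that of Zcchc6-/-. Ndufs7 had a log2 fold change of -0.095 and Ndufb3, at the floor of the signal, of 0.13 (limma adjusted p = 0.998 and 0.997). Leaving out 1 array moved Ndufs7 to as little as -0.0075 (without Zcchc6-/- replicate 1) and Ndufb3 to 0.069 and 0.20 (without Zcchc6+/+ replicates 1 and 3).

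Of the subunit genes on the X chromosome, Ndufa1 and Ndufb11 of complex I had log2 fold changes of 0.078 and -0.099, and Cox7b of complex IV had 0.036. The arrays with low Xist, 1 in each genotype, read 7.01 and 7.17 for Ndufa1, between the lowest and the highest of the other arrays. For Ndufb11 and Cox7b the low-Xist Zcchc6-/- array was the lowest of all, at 3.81 and 3.34. The low-Xist Zcchc6+/+ array read 4.01 and 3.72 for them, between the lowest and the highest of the others. With the Xist level fitted, no subunit gene passed either.

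In complex II no gene passed, and 1 of the 4, Sdhb, did not overlap between the genotypes. Sdhb, the iron-sulfur protein that passes electrons from Sdha to coenzyme Q, read 8.09, 8.05 and 8.02 in the Zcchc6+/+ arrays against 7.82, 7.86 and 7.93 in the Zcchc6-/- arrays. Every Zcchc6-/- array lay below every Zcchc6+/+ array, at 88.0% of the wildtype signal, and the log2 fold change was -0.19 ± 0.095 (SE, 95% interval -0.41 to 0.037, limma adjusted p = 0.997). Its partner Sdha did not show this, with 9.58, 9.49 and 9.48 in Zcchc6-/- arrays and a log2 fold change of -0.0041 (95% interval -0.22 to 0.21, limma adjusted p = 0.999), whose sign turned to 0.013 with the array medians centred and 0.027 with a second quantile normalization. Sdhc and Sdhd anchor the head in the membrane and bind coenzyme Q. Sdhc read 8.55, 8.49 and 8.73 against 8.13, 8.74 and 8.58, and Sdhd read 7.88, 7.41 and 7.96 against 7.47, 8.07 and 7.72. For both, replicate 1 was the lowest Zcchc6-/- array, and without that array the log2 fold changes of Sdhc and Sdhd were 0.069 and 0.14, against -0.11 and 0.0018 with it.

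Complex III had 7 measured genes, 4 with a higher and 3 with a lower mean. The median difference (log2) was 0.0079 (-0.0068 with a second quantile normalization), and no gene was without overlap, against 10.2% of all genes. Uqcrfs1, the Rieske iron-sulfur protein that takes electrons from coenzyme Q, read 5.84, 5.66 and 6.06 in the Zcchc6+/+ arrays against 5.34, 5.79 and 5.71 in the Zcchc6-/- arrays. The log2 fold change was -0.24 ± 0.16 (SE, limma adjusted p = 0.997), -0.10 without Zcchc6-/- replicate 1 and -0.14 without Zcchc6+/+ replicate 3. Uqcr10, a small subunit near cytochrome c1, read 6.70, 6.93 and 6.76 against 7.45, 6.62 and 6.83. Its log2 fold change of 0.17 ± 0.21 (SE, limma adjusted p = 0.998) rested on Zcchc6-/- replicate 1 and was -0.069 without it.

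The spread within complex III split by subunit, a pattern noticed after the values were seen. The mean of the small subunit genes Uqcr10, Uqcr11, Uqcrh and Uqcrq, each over its Zcchc6+/+ mean, was 0.40, -0.28 and -0.0024 in Zcchc6-/- replicates 1, 2 and 3. That of the core protein genes Uqcrc1 and Uqcrc2 with Uqcrfs1 was -0.32, 0.082 and -0.029 in the same arrays. In Zcchc6+/+ replicates 1 to 3 the former were at -0.038, 0.14 and -0.10 and the latter at -0.047, -0.13 and 0.18. The groups thus stood on opposite sides in 4 of the 6 arrays. Zcchc6-/- replicate 1, where the gap was widest, was also the array where T cell markers were high, and the part of those cells in it was not tested.

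In complex IV no gene passed, and 4 of the 19 (21.1%) did not overlap between the genotypes, 3 lower and 1 higher, against 10.2% of all genes (5.15% lower and 5.03% higher). Cox8a, a small ubiquitous subunit, read 9.35, 9.29 and 9.35 in the Zcchc6+/+ arrays against 8.80, 9.17 and 9.20 in the Zcchc6-/- arrays. It lay lower in every Zcchc6-/- array, with a log2 fold change of -0.27 ± 0.13 (SE, limma adjusted p = 0.997), of which -0.15 was left without Zcchc6-/- replicate 1. Cox5b, which binds zinc, was the gene with higher values throughout, at 3.24, 3.37 and 3.12 against 3.42, 3.39 and 3.37, but its signal was low and the difference 0.15 (limma adjusted p = 0.997). Cox6a1, the ubiquitous isoform of a regulatory subunit, read 11.48, 11.44 and 11.51 against 11.17, 11.32 and 11.48, with a log2 fold change of -0.15 ± 0.11 (SE, limma adjusted p = 0.997). It was -0.076 without Zcchc6-/- replicate 1, -0.23 without Zcchc6-/- replicate 3 and -0.077 with array weights. Cox4i1, the main isoform of the subunit that binds ATP, differed less, at 8.28, 8.34 and 8.29 against 8.39, 8.29 and 8.26, with a log2 fold change of 0.0055 (95% interval -0.22 to 0.23, limma adjusted p = 0.999), which was -0.020 with array weights.

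Several complex IV subunits have alternative isoforms. In mammals Cox4i2 is known from lung and from hypoxia, Cox6a2, Cox7a1 and Cox8b from heart and skeletal muscle, Cox6b2, Cox7b2 and Cox8c from testis, and Ndufa4l2 from hypoxic cells. Of these 8 genes 7 had a lower mean in Zcchc6-/- macrophages, or 6 with the array medians centred or a second quantile normalization, where the sign for Cox6a2 turned. The 8 had a median difference (log2) of -0.11, and 2 of the 8 had a wildtype signal above the median of all genes, Cox6b2 and Cox7a1. Cox6b2 read 7.31, 6.99 and 7.13 in the Zcchc6+/+ arrays against 6.89, 6.95 and 6.68 in the Zcchc6-/- arrays. The genotypes did not overlap, though replicate 2 of each stood close together, and the log2 fold change was -0.31 ± 0.13 (SE, 95% interval -0.61 to -0.0066, unadjusted p = 0.0463, limma adjusted p = 0.983). Its ubiquitous counterpart Cox6b1 read 7.50, 7.70 and 7.73 against 7.50, 7.69 and 7.66, a log2 fold change of -0.027 (limma adjusted p = 0.998). The difference between these isoforms in their response was not tested.

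Cox4i2 read 4.26, 4.64 and 4.21 against 3.87, 4.18 and 4.22, with a log2 fold change of -0.28 ± 0.16 (SE, limma adjusted p = 0.997), and the genotypes overlapped. Leaving out Zcchc6+/+ replicate 2 gave -0.15, and leaving out Zcchc6-/- replicate 1 gave -0.17. Cox7a1 read 5.05, 5.22 and 5.03 against 4.89, 5.01 and 4.96 without overlap, a log2 fold change of -0.15, while the ubiquitous Cox7a2 had 0.0051 and Cox7a2l, which joins complexes III and IV in supercomplexes, had 0.040 (limma adjusted p = 0.997, 0.999 and 0.998). Without Zcchc6+/+ replicate 2, Cox7a1 had -0.090. The remaining isoform genes lay at or under the median signal in both genotypes. Cox6a2, Cox7b2, Cox8b and Cox8c had log2 fold changes from -0.092 to 0.0014 and Ndufa4l2 had -0.14, against -0.053 for Ndufa4. The X-linked ubiquitous Cox7b was at 3.72, 3.46 and 3.49 against 4.08, 3.34 and 3.36, and so was highest in Zcchc6-/- replicate 1.

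**Figure D3:**
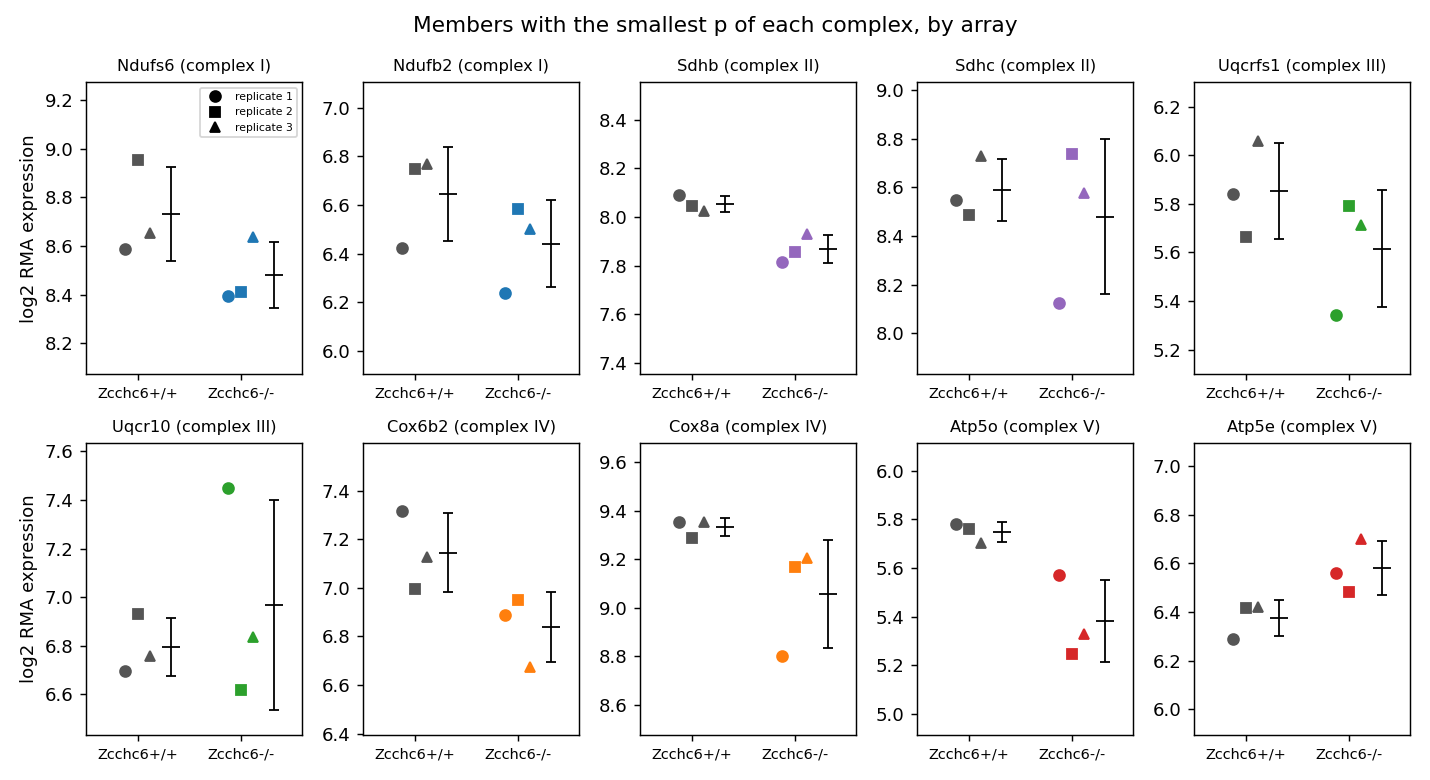
Log2 RMA expression (y axis, each panel spanning the same range of 1.2) of the 2 genes with the smallest p of each complex, by genotype. Symbols mark the replicate number, and bars show the mean and SD of 3 arrays. Atp5o, Cox6b2, Cox8a and Sdhb lie lower and Atp5e higher in every Zcchc6-/- array, and the others overlap.

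Complex V, with a median difference (log2) of -0.0021 that turned to 0.015 with the array medians centred and 0.029 with a second quantile normalization, held the member with the smallest p of all. This was Atp5o, the oligomycin sensitivity conferring protein at the top of the peripheral stalk, which ties the catalytic head to the membrane part. It read 5.78, 5.76 and 5.70 in the Zcchc6+/+ arrays against 5.57, 5.25 and 5.33 in the Zcchc6-/- arrays, or 77.6% of the wildtype signal. Every Zcchc6-/- array lay below every Zcchc6+/+ array, and the log2 fold change was -0.37 ± 0.12 (SE, 95% interval -0.64 to -0.095, unadjusted p = 0.0148 and limma adjusted p = 0.902). It was -0.46 without Zcchc6-/- replicate 1, where T cell markers were high, and between -0.39 and -0.30 without any other array. Atp5j, coupling factor 6 of the same stalk, read 4.71, 4.55 and 4.64 against 4.31, 4.59 and 4.32, with a log2 fold change of -0.23 ± 0.12 (SE, limma adjusted p = 0.997). The third measured stalk gene, Atp5pb, differed in sign, at 8.21, 8.31 and 8.40 against 8.11, 8.57 and 8.40, a log2 fold change of 0.056 (95% interval -0.27 to 0.38, limma adjusted p = 0.998).

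In the head and central stalk of complex V, Atp5e, the small epsilon subunit, was the gene with the highest positive difference of the 75. It read 6.29, 6.42 and 6.42 in the Zcchc6+/+ arrays against 6.56, 6.48 and 6.70 in the Zcchc6-/- arrays without overlap, at 115% of the wildtype signal, with a log2 fold change of 0.21 ± 0.11 (SE, 95% interval -0.043 to 0.45, limma adjusted p = 0.997). The alpha and beta subunits that form the catalytic ring, Atp5a1 and Atp5b, had log2 fold changes of 0.0084 and -0.013 (95% intervals -0.26 to 0.28 and -0.23 to 0.20, limma adjusted p = 0.999 each). The sign for Atp5b turned to 0.0042 with the array medians centred and 0.031 with a second quantile normalization. The gamma and delta subunit genes Atp5c1 and Atp5d had -0.048 and -0.14. Atp5g3, the measured gene of the c subunit that forms the rotor ring, had 0.074, and the small membrane subunit genes Atp5k, Atp5md and Atp5mpl had 0.011, -0.19 and 0.037. Atp5md was low in Zcchc6-/- replicate 1 alone, at 6.61 against 7.33 and 7.24 in the others of its genotype. Atpif1, the inhibitor that blocks ATP hydrolysis by this enzyme and no member by symbol, read 9.10, 8.85 and 8.84 against 8.79, 8.63 and 8.86 (log2 fold change -0.17, limma adjusted p = 0.997).

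Averaged over members, the complexes did not share 1 direction across arrays. The mean of all 75 genes over their Zcchc6+/+ mean was -0.034, -0.0028 and 0.037 in Zcchc6+/+ and -0.070, -0.0049 and -0.061 in Zcchc6-/- replicates 1 to 3, and the genotypes overlapped. Complex IV alone did not overlap, at 0.015, 0.0030 and -0.018 against -0.10, -0.068 and -0.053. The 8 restricted isoforms, 6 of them under the median signal, stood at -0.20, -0.13 and -0.065 in Zcchc6-/- replicates 1 to 3. In Zcchc6+/+ replicates 1 to 3 they stood at 0.037, 0.014 and -0.051. The 10 ubiquitous subunits stood at -0.054, -0.017 and -0.057 against -0.012, 0.0021 and 0.0098 in Zcchc6+/+. The median difference (log2) of complex IV was -0.049, and -0.032 with the array medians centred. Its means by array were not computed with that centring. Complex II was lowest in Zcchc6-/- replicate 1 at -0.23, and so was complex V at -0.14, while complex III was highest there at 0.093. That array was the lowest of the 6 for 29 of the 75 genes (38.7%), against 25.7% of all genes. It was the highest for 16 of them (21.3%), against 22.6%. Zcchc6-/- replicate 3 was the highest array for only 2 of the 75 (2.67%), against 16.1% of all genes, and Zcchc6+/+ replicate 3 for 22 (29.3%), against 14.7%. A change of these nuclear transcripts per cell and a changed share of macrophages in the lavage cannot be told apart in such bulk samples.

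**Figure D4:**
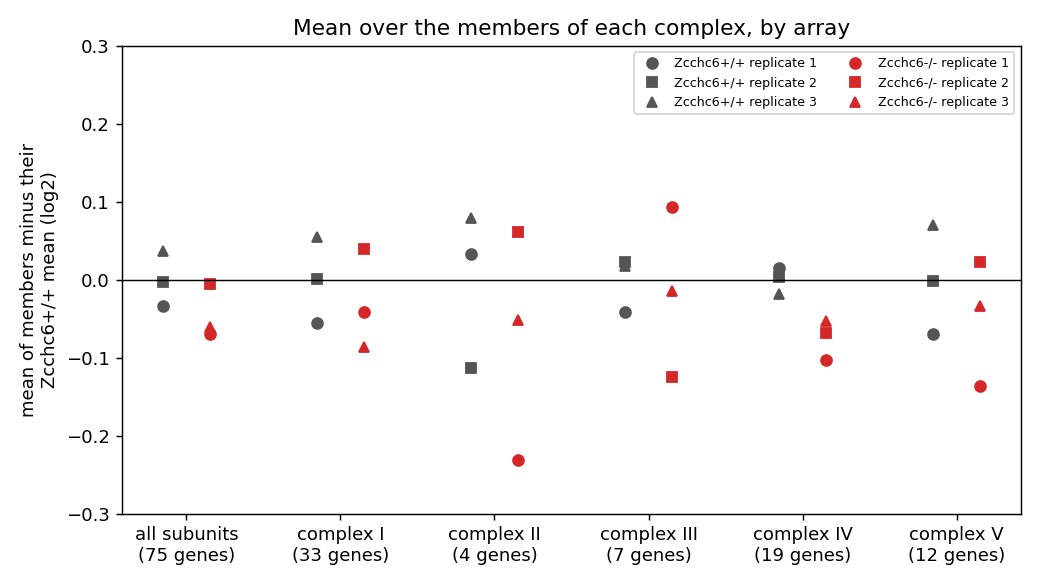
Mean over the members of each complex after subtracting each gene's Zcchc6+/+ mean (y axis, log2), for the 6 arrays. Grey symbols are Zcchc6+/+ and red symbols Zcchc6-/- arrays, and the symbol marks the replicate number. Complex IV is the group whose red symbols all lie under the grey ones. Its restricted isoforms were at -0.20, -0.13 and -0.065 in Zcchc6-/- against 0.037, 0.014 and -0.051 in Zcchc6+/+ arrays. Its ubiquitous subunits were at -0.054, -0.017 and -0.057 against -0.012, 0.0021 and 0.0098. Complex II in Zcchc6-/- replicate 1 is the lowest value drawn, at -0.23.

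Genes that build, feed and regulate the chain were compared in the same way. Of 52 measured assembly factors, 23 had a higher and 29 a lower mean, with a median difference (log2) of -0.0073, and 0 passed over all genes. Fmc1, which helps to assemble complex V, read 3.25, 3.54 and 3.47 in the Zcchc6+/+ arrays against 2.75, 3.10 and 2.82 in the Zcchc6-/- arrays, a log2 fold change of -0.53 ± 0.14 (SE, limma adjusted p = 0.830) at a low signal. Uqcc3 of complex III assembly had -0.22, Coa6, which serves copper delivery to complex IV, 0.27, Nubpl of complex I assembly 0.34 and Sdhaf1 of complex II assembly -0.14 (limma adjusted p = 0.995, 0.997, 0.997 and 0.997). Of 16 genes of cytochrome c and coenzyme Q synthesis, 8 were higher and 8 lower, with Coq6 at 0.20, and 7 genes of other inputs to coenzyme Q included the glycerol phosphate dehydrogenase Gpd2 at 0.21 (limma adjusted p = 0.997 each). Among 6 carriers of nucleotides and phosphate and uncoupling proteins, Ucp3 read 8.66, 8.78 and 8.65 against 8.58, 8.42 and 8.28, without overlap (log2 fold change -0.27, limma adjusted p = 0.989). Among 5 supercomplex and hypoxia factors, Higd2a of complex IV assembly had -0.24 (limma adjusted p = 0.997).

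The 17 measured regulators of nuclear respiratory genes and mitochondrial DNA had a median difference (log2) of 0.11, with 11 higher and 6 lower. None passed over all genes in limma, 1 (5.88%) had an unadjusted p under 0.05, against 5.03% of all genes, and 6 (35.3%) did not overlap between the genotypes, 4 higher and 2 lower, against 10.2% of all genes (5.03% higher and 5.15% lower). Twnk, the helicase that unwinds mitochondrial DNA, read 4.84, 4.94 and 5.07 in the Zcchc6+/+ arrays against 5.23, 5.22 and 5.24 in the Zcchc6-/- arrays, a log2 fold change of 0.27 ± 0.10 (SE, limma adjusted p = 0.974). Esrra, the nuclear receptor that works with the PGC-1 coactivators on respiratory genes, read 6.72, 6.69 and 6.67 against 6.60, 6.36 and 6.39, with a log2 fold change of -0.24 (limma adjusted p = 0.997). Both were without overlap. Of the factors whose motifs were searched, Nrf1 had 0.16 and Yy1 -0.029 (limma adjusted p = 0.997 and 0.998). For GABP, Gabpa had 0.039 and Gabpb1 0.21 (limma adjusted p = 0.998 and 0.997). Gabpb1 read 6.71, 6.74 and 6.89 against 6.99, 7.03 and 6.94, without overlap. The 13 genes of the tricarboxylic acid cycle, which supplies NADH and succinate, had a median of -0.0078, with Suclg2 at 0.22 (limma adjusted p = 0.997). Their mean over the Zcchc6+/+ mean was -0.23, 0.17 and -0.0014 in Zcchc6-/- replicates 1 to 3, so that Zcchc6-/- replicate 1 was low for this list as for complexes II and V.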

How the data were processed

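Alveolar macrophage RNA of 3 Zcchc6+/+ and 3 Zcchc6-/- samples was hybridised to Affymetrix Mouse Gene ST 2.0 arrays. The authors deposited log2 values, made from the scans by RMA in affy 1.36.1 (R 2.15.1) with a Brainarray Entrez Gene mapping. RMA subtracts background, brings the arrays to 1 distribution and summarises the probes of a gene, so probe detail, detection calls and any shift shared by most genes are lost. The build used for that mapping was not stated in the text read. Entrez numbers were named with the RefSeq table of GRCm38.p6 or, where it gave no symbol, with a probe annotation. Together these named 23740 of 25206 genes, and the RefSeq table named all 75 members. How far probes separate subunit genes from their pseudogenes was not examined.

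Genotypes were compared with limma 3.58.1 in R 4.3.3 (lmFit and eBayes, no covariate, no filter, 4 residual and 3.47 prior degrees of freedom), with Benjamini-Hochberg adjustment over all genes. The procedure was run on simulated data with planted changes larger than any difference of a subunit gene. That run does not tell how well differences of the size seen here would be found. No test over the list was made. Members and lists were chosen with earlier results of these data known. Of 196 listed genes 178 were matched. Named genes were, per complex, the 2 with the smallest p and those with the highest and lowest wildtype mean, every member at an unadjusted p under 0.05, isoform sets, and the gene with the smallest p of each list on the chain. Other members and regulators named were chosen after their values were seen. A planned comparison of isoform proteins was not made. Motif windows come from the first promoter of each gene. The largest share of identical values between 2 arrays was 0.298%, so each array counted once.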

Additional observations from a re-analysis of the deposited data

How the results depend on the processing

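No subunit gene passed under any of the 15 alternatives: a filter at the median, trended, robust or unmoderated variances, array weights, a second quantile normalization, centred array medians, a replicate block, the Xist level as a covariate, or leaving out each of the 6 arrays. Over all genes the count was 0 to 1 when 1 array was left out, the 1 being without Zcchc6-/- replicate 1, and 0 otherwise. At an unadjusted p under 0.05 there were 1 to 4 members. With the replicate number as a block 0 of 75 members passed, 1 had an unadjusted p under 0.05, and the Atp5o log2 fold change stayed at -0.37 (adjusted p = 1.00 from limma). The labels do not say that the numbers pair samples, and deviations of same-numbered arrays correlated at 0.090, -0.23 and 0.046, so they were not treated as pairs. Leaving out 1 array moved the median log2 fold change from -0.076 to -0.0085 for all subunits, from -0.10 to 0.016 for complex I, from -0.17 to 0.017 for complex II, from -0.074 to 0.14 for complex III, from -0.077 to -0.026 for complex IV and from -0.042 to 0.030 for complex V. The adjusted p of Atp5o lay between 0.504 and 1.00 over the alternatives in limma.

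Of the 32 named members 16 kept their sign throughout. Signs turned with array weights for Cox6a2 (0.035), Cox4i1 (-0.020), Cox6b1 (0.0080), Cox7a2 (-0.035) and Cox7b (-0.095), with a second quantile normalization for Sdha (0.027), Atp5b (0.031), Cox6a2 (0.0065) and Cox7a2 (-0.015), and with centred medians for Sdha (0.013), Atp5b (0.0042) and Cox6a2 (0.0025). Leaving out 1 array gave ranges across 0 for Sdhc (-0.24 to 0.069), Sdha (-0.035 to 0.014), Sdhd (-0.17 to 0.14), Uqcr10 (-0.069 to 0.35), Uqcrh (-0.074 to 0.14), Atp5b (-0.031 to 0.0072), Cox6a2 (-0.13 to 0.21), Cox8b (-0.21 to 0.061), Cox8c (-0.12 to 0.17), Ndufa4l2 (-0.30 to 0.020), Cox7a2l (-0.020 to 0.12), Cox4i1 (-0.033 to 0.031), Cox6b1 (-0.098 to 0.031), Cox7a2 (-0.037 to 0.054), Cox7b (-0.21 to 0.16) and Atp5g3 (-0.017 to 0.14). The cause was not tested. Without detection calls, the signal over background that limits the dim genes is unknown.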
